A study of Mus musculus with 52 samples.

Results

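Type 17 immunity was examined in these tumors through 9 genes, namely the cytokine genes Il17a, Il17f, Il22 and Il23a, the receptor genes Il23r and Ccr6 of the cells that make or follow these cytokines, and the receptor subunit genes Il17ra, Il17rc and Il22ra1 of the cells that respond. The genes were chosen by name, and 8 of the 9 were found among the 27525 genes of the table of 32 tumors. Expression of Il22 was not analysed here, and only its promoter window was searched for motifs. Individual subcutaneous KPC tumors, grown in syngeneic male C57BL/6NHsd mice from 1 pancreatic cancer line derived from a Pdx1-Cre mouse model of pancreatic cancer, had been sequenced as bulk RNA to learn how 2 agonists change the immune response in the tumor. Of 4 groups of 8 tumors, one was untreated, one received the STING agonist ADU-S100 (2 µg once, into the tumor), one received the agonistic anti-LTβR antibody 4H8 (100 µg, 4 injections into the peritoneum until day 10), and one received both agents (combination therapy). All tumors were collected on day 14. All groups shared the tumor line, the host strain and the site of growth, mice were 8 to 10 weeks old, tumors measured about 100 mm3 when treatment began, and no vehicle or isotype antibody was mentioned for the untreated group. The sample labels do not tie tumors to mice, so p-values measure the spread between tumors. The study describes the 8 tumors per group once as from 1 experiment and once as pooled from 2, and the labels give no batch, so that a batch could be neither fitted nor checked.

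In type 17 immunity, IL-23, a dimer of the products of Il23a and Il12b, acts through IL-23R and IL-12Rβ1 on T helper 17 cells, γδ T cells and group 3 innate lymphoid cells, which then make IL-17A, IL-17F and IL-22. IL-17A and IL-17F bind a receptor made of IL-17RA and IL-17RC, which is present on many epithelial, stromal and myeloid cells and induces neutrophil chemokines, whereas IL-22 acts on epithelium through IL-22RA1 and IL-10RB. CCR6, the receptor of the chemokine CCL20, is carried by type 17 lymphocytes and also by B cells.

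Values are normalized counts, in which the reads of a gene are scaled by the size factor of its tumor. Reads assigned to genes ranged from 12762453 to 15591986 per tumor (median 14932388.5), so that 1 normalized count was close to 1 read. Tests used limma on log2(normalized count + 1) with p-values adjusted over all genes tested, and a gene was called at an adjusted p below 0.05. Genes under a minimum of about 10 counts were set aside by a filter on low counts. Most type 17 genes fell under it and were tested in a fit of all genes without the filter, together with a two-sided exact permutation test of each single gene over all splits of the 16 tumors into 2 groups of 8, which cannot give a p below 0.000155. The comparisons with untreated tumors share the same 8 untreated tumors.

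Per kilobase of exon, the order of mean levels over the 32 tumors was Il17ra (231 normalized counts per kilobase), Il17rc (154), Il22ra1 (4.18), Ccr6 (3.02), Il23a (2.32), Il23r (1.05), Il17a (0.564) and Il17f (0.475). The place of Il17a rests on untreated tumor 7, without which its mean over 31 tumors was 0.213, below Il17f. The order pools groups that differ, since in untreated tumors Il23a (2.92) lay above Ccr6 (1.48) and Il23r (0.44), and after combination therapy Ccr6 (5.00) and Il23r (2.33) lay above Il23a (2.03). The IL-17 receptor subunits therefore stood far above the cytokines that bind them. Il17ra lay above 94.0% of all genes in the table by its mean count and Il17a above 9.82%. Il17ra and Il17rc differed beyond their spread (247 ± 27.9 and 165 ± 19.5 normalized counts per kilobase in untreated tumors, SD, n = 8). The ranges of mean ± SD of Ccr6 and Il23a, neighbours in the order, overlapped in every group (5.00 ± 2.09 and 2.03 ± 1.93 under combination therapy, where the means lay farthest apart), as did those of Il17a and Il17f.

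The main difference between groups lay in the receptors of type 17 lymphocytes. Il23r was 5.30 times and Ccr6 3.38 times as high in mean count after combination therapy as in untreated tumors. Il17a and Il17f rested on 1 to 16 reads per group, Il23a, with 36 to 53 reads per group, was not called, and Il17ra was 14.7% lower after combination therapy. Of the 8 genes, 3 passed the filter on low counts in combination therapy against untreated tumors and 1 of these was called (Il17ra, lower), beside 43.2% of all genes tested. Of the 5 genes under the filter, 2 were called (Il23r and Ccr6, both higher), beside 27% of all genes in the fit without the filter, 13.1% higher. That fit also holds the genes that passed the filter, and the share called among genes under it alone was not computed. Calls were common among all genes in this comparison, so that the share of these 8 genes called is no result in itself. With a change of at least 2-fold also required, 0 of the members that passed the filter were called against untreated or ADU-S100 tumors, beside 6.12% and 6.17% of all genes tested. Under the filter, the 2 members called against untreated tumors, Il23r and Ccr6, also met this rule.

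**Figure D1:**
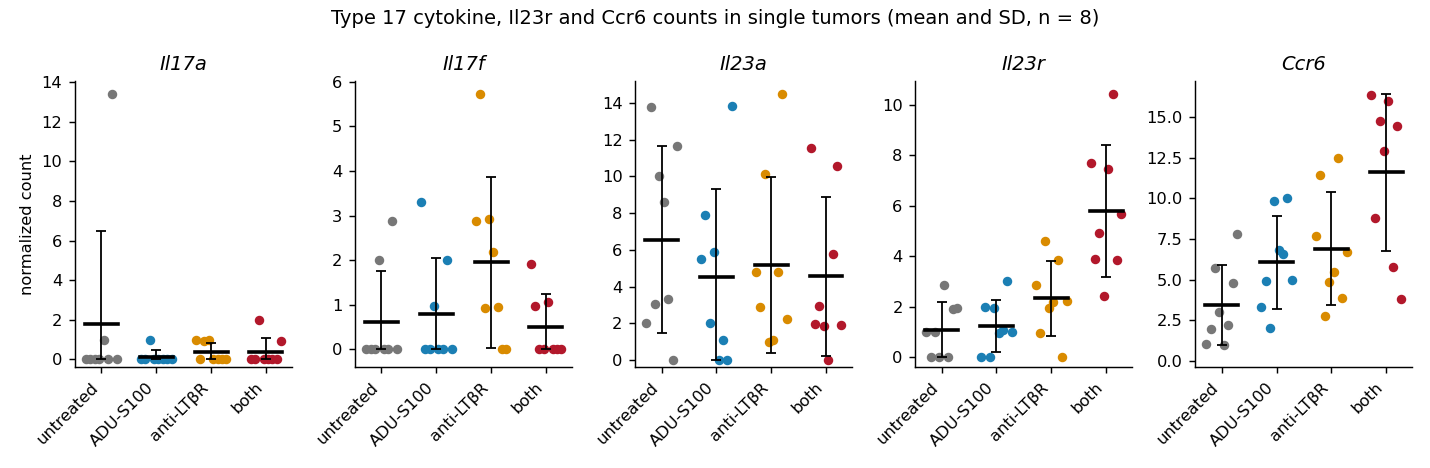
Normalized counts (vertical axis) of Il17a, Il17f, Il23a, Il23r and Ccr6 in the 8 tumors of each group (points, spread sideways only to separate them), with the group mean (bar) and SD (error bars, lower ends stopped at 0); "both" is combination therapy. Il23r lay between 2.41 and 10.4 after combination therapy and at or below 2.86 in untreated tumors, whereas 1 untreated tumor holds nearly all Il17a counts of its group.

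Il17a encodes IL-17A, the signature cytokine of type 17 cells (chromosome 1, 20730905 to 20734496, plus strand, GRCm38). Its normalized counts ran from 0 to 13.4 in untreated tumors with a median of 0, from 0 to 0.999 after ADU-S100, from 0 to 0.975 after anti-LTβR and from 0 to 1.97 after combination therapy, with a median of 0 in every group. Only 8 of 32 tumors had any read, and the groups overlapped fully. Untreated tumor 7 alone held 14 of the 15 reads of its group (95% Poisson interval of the group total 8.40 to 24.7 reads, counting error only). Without that tumor the untreated mean fell from 1.79 ± 4.70 (SD, n = 8) to 0.136 ± 0.361 (SD, n = 7), beside 0.365 ± 0.728 (SD, n = 8) after combination therapy. The difference of combination therapy from untreated tumors was -0.29 on the log2 scale (95% confidence interval -1.31 to 0.74; limma adjusted p = 0.720, exact permutation p = 0.733). A change of Il17a was not detectable at this depth.

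Il17f encodes IL-17F, which pairs with IL-17A or with itself, and lies beside Il17a on chromosome 1 (20777146 to 20790617, minus strand, GRCm38). Its medians were 0 in untreated, ADU-S100 and combination therapy tumors, with highest values of 2.87, 3.31 and 1.92 normalized counts. After anti-LTβR it ran from 0 to 5.73 with a median of 1.57, and 6 of the 8 tumors had a read, 16 reads in all against 5 in untreated tumors. The ranges overlapped, and anti-LTβR differed from untreated tumors by 0.84 on the log2 scale (95% confidence interval -0.06 to 1.74; limma adjusted p = 0.237, exact permutation p = 0.109). The difference between combination therapy and anti-LTβR was -0.84 (limma adjusted p = 0.179, exact permutation p = 0.0622), which did not pass either. Over all 32 tumors, after removal of group means, Il17a and Il17f had a Pearson r of 0.25 (permutation p = 0.191, adjusted over 3 relations 0.574) and a Spearman rho of -0.0012 (permutation p = 0.995), and r was 0.018 without the 2 tumors farthest from the median of Il17a.

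Il23a encodes the p19 subunit of IL-23, produced by dendritic cells and macrophages (chromosome 10, 128296139 to 128298752, minus strand, GRCm38). It was seen in 28 of 32 tumors at a few counts each. Untreated tumors ran from 0 to 13.8 normalized counts (median 5.96), ADU-S100 tumors from 0 to 13.9 (median 3.75), anti-LTβR tumors from 0.975 to 14.5 (median 3.83) and combination therapy tumors from 0 to 11.5 (median 2.45). The 4 ranges overlapped almost entirely. Combination therapy differed from untreated tumors by -0.43 on the log2 scale (95% confidence interval -1.67 to 0.81; limma adjusted p = 0.643, exact permutation p = 0.414). The interval lies on both sides of 0, and a change of Il23a was not detected. Its spread between tumors was wide (6.56 ± 5.09 in untreated tumors, SD, n = 8).

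Il23r encodes the specific chain of the IL-23 receptor (chromosome 6, 67422932 to 67491855, minus strand, GRCm38). Untreated tumors ran from 0 to 2.86 normalized counts (median 1.01), ADU-S100 tumors from 0 to 3.01 (median 1.04), anti-LTβR tumors from 0 to 4.60 (median 2.20) and combination therapy tumors from 2.41 to 10.4 (median 5.30). In combination therapy 7 of 8 tumors lay above every untreated tumor, and only the lowest of them fell inside the untreated range. The group totals were 9 reads in untreated tumors (95% Poisson interval 4.12 to 17.1), 10 after ADU-S100 (4.80 to 18.4), 19 after anti-LTβR (11.4 to 29.7) and 46 after combination therapy (33.7 to 61.4), all for counting error only. Means were 5.80 ± 2.61 after combination therapy and 1.09 ± 1.08 in untreated tumors (SD, n = 8), a difference of 1.79 ± 0.35 (SE) on the log2(normalized count + 1) scale, which understates the change of a gene this low (limma without the filter, adjusted p = 0.00097, exact permutation p = 0.000311). In bulk tumors, more cells that carry a receptor and more RNA per cell cannot be told apart.

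Against the single agents, Il23r after combination therapy was higher than after ADU-S100 by 1.65 ± 0.33 (SE, limma adjusted p = 0.0011, exact permutation p = 0.000311), and higher than after anti-LTβR by 1.10 ± 0.34 (SE, limma adjusted p = 0.0416, exact permutation p = 0.0044). The call against anti-LTβR lay close to the threshold and was lost with edgeR on whole reads (adjusted p = 0.0556) or a pseudocount of 0.5 (adjusted p = 0.0534). It was also lost when any 1 of anti-LTβR tumors 2, 4, 5, 7 and 8 or combination therapy tumors 1, 3, 5, 6 and 8 was left out, with differences between 0.87 and 1.11 and limma adjusted p from 0.0569 to 0.0837. The difference kept its direction in each of these. Neither single agent was called against untreated tumors, at 0.14 for ADU-S100 (95% confidence interval -0.63 to 0.91; limma adjusted p = 0.904) and 0.69 for anti-LTβR (-0.11 to 1.50; limma adjusted p = 0.280). The excess of combination therapy over the sum of both single agents was 0.96 on the log2 scale (95% confidence interval -0.08 to 1.99), which limma did not call (interaction, adjusted p = 0.255).

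Ccr6 encodes the CCL20 receptor (chromosome 17, 8236043 to 8257141, plus strand, GRCm38) and had reads in all 32 tumors. Untreated tumors ran from 0.955 to 7.79 normalized counts (median 2.62), ADU-S100 tumors from 2.00 to 10.04 (median 5.77), anti-LTβR tumors from 2.76 to 12.5 (median 6.06) and combination therapy tumors from 3.79 to 16.3 (median 13.7). After combination therapy 6 of 8 tumors lay above every untreated tumor, and the other 2 fell inside the untreated range. Means were 11.6 ± 4.85 after combination therapy and 3.43 ± 2.44 in untreated tumors (SD, n = 8), a difference of 1.57 ± 0.37 (SE) on the log2 scale (limma without the filter, adjusted p = 0.0041, exact permutation p = 0.0020). Reads per group were 28, 48, 56 and 94 in untreated, ADU-S100, anti-LTβR and combination therapy tumors.

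For Ccr6 the single agents stood between the untreated and the combined group. Anti-LTβR differed from untreated tumors by 0.91 on the log2 scale (95% confidence interval 0.15 to 1.66; limma p = 0.0222 unadjusted, adjusted p = 0.130, exact permutation p = 0.0376) and ADU-S100 by 0.75 (-0.02 to 1.51; limma adjusted p = 0.442, exact permutation p = 0.0688). Combination therapy exceeded ADU-S100 by 0.83 (limma adjusted p = 0.0761, exact permutation p = 0.0180). It exceeded anti-LTβR by 0.67 (limma adjusted p = 0.201, exact permutation p = 0.0454, and 0.0657 for the permutation on the log2 scale). The permutation p-values are of the single gene and not adjusted. The difference from ADU-S100 was called by DESeq2 on whole reads (0.95, adjusted p = 0.0379) and, in limma, without combination therapy tumor 8 (1.01, adjusted p = 0.0226). Without the same tumor Ccr6 was not called against anti-LTβR in the fit without the filter (0.85, limma adjusted p = 0.0755). The interaction was -0.08 (95% confidence interval -1.08 to 0.93; limma adjusted p = 0.948), and its interval is wide on both sides of 0.

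The 250 bases before the transcription starts of Il23r and Ccr6, which were called, and of Il17a and Il17f, cytokine genes of the same lineage in which a change was not detectable, are shown for comparison. Sequences are from RefSeq (GRCm38.p6), in which 7 of the 9 genes, Il22 among them, had a promoter entry (8 windows, with 2 starts for Ccr6), and are written 5′ to 3′ on the strand of the gene. Capitals mark AGGTCA on either strand (TGACCT on the other), a half-site of nuclear receptors. The windows are chr6:67491856-67492105 (minus strand) for Il23r, chr17:8235793-8236042 (plus strand, the first start) for Ccr6, chr1:20730655-20730904 (plus strand) for Il17a and chr1:20784271-20784520 (minus strand) for Il17f.
Il23r: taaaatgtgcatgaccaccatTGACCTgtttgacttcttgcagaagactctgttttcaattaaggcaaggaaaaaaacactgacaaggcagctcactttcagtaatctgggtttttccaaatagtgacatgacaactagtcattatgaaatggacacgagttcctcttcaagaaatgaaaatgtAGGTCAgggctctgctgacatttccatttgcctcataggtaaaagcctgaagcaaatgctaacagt
Ccr6: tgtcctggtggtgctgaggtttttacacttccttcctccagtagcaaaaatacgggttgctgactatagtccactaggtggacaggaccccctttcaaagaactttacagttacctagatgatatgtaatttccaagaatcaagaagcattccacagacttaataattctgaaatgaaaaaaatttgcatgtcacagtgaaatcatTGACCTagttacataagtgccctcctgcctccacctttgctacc
Il17a: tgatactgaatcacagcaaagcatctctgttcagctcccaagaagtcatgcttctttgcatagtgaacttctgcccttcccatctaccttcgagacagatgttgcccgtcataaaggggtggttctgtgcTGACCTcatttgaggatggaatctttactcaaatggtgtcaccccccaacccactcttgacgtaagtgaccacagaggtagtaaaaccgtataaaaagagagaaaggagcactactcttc
Il17f: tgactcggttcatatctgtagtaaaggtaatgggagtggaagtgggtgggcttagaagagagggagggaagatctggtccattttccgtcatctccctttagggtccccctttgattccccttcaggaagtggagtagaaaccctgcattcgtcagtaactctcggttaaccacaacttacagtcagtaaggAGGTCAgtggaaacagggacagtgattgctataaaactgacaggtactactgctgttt

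The Il23r window holds AGGTCA at 2 places, the nearer from 66 to 61 bases before the start. The first Ccr6 window holds it from 44 to 39 bases before the start, Il17a from 120 to 115 and Il17f from 58 to 53. The second Ccr6 window (chr17:8242276-8242525), which is not shown, holds it at 0 places. These 4 of the 7 genes with an entry contain the letters, Ccr6 in its first window only, beside 14% of the 32851 promoter windows of the same length. The motif is therefore shared by the 2 genes called higher and the 2 with too few reads to show a change. None of the 7 holds the interferon-stimulated response element searched on both strands, found in 2.98% of all windows. Of the 7, 5 hold the κB element, found in 45.8% of all windows, Ccr6 only in its second window. In the 4 printed windows these matches do not overlap AGGTCA. A match describes the letters only, and binding was not measured.

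**Figure D2:**
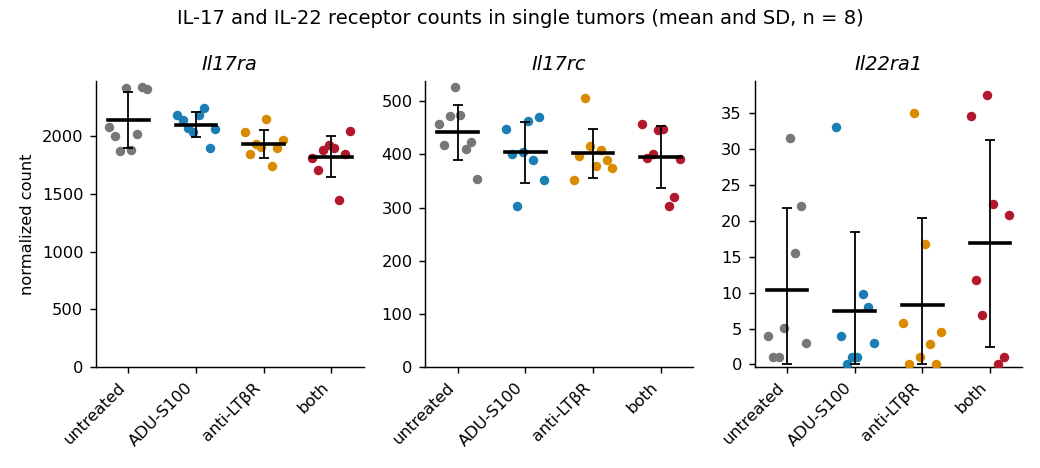
Normalized counts (vertical axis) of the receptor subunit genes Il17ra, Il17rc and Il22ra1 in the 8 tumors of each group (points, spread sideways only to separate them), with mean (bar) and SD (error bars, lower ends stopped at 0). Il17ra and Il17rc vary little between tumors, whereas Il22ra1 runs from 0 to 37.6.

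Il17ra encodes the subunit shared by receptors of several IL-17 cytokines (chromosome 6, 120463247 to 120487559, plus strand, GRCm38). Untreated tumors ran from 1871 to 2427 normalized counts (median 2048), ADU-S100 tumors from 1894 to 2239 (median 2104), anti-LTβR tumors from 1743 to 2150 (median 1916) and combination therapy tumors from 1451 to 2045 (median 1864). The ranges of all groups met, with the lowest tumor in the combined group. Combination therapy was lower than untreated tumors by a log2 difference of -0.23 ± 0.075 (SE, limma adjusted p = 0.0206), beside 23.6% of all genes tested that were lower. It was also lower than ADU-S100 by a difference of -0.21 ± 0.058 (SE, limma adjusted p = 0.0069), where 1 of the 2 members that passed the filter was called, beside 46.2% of all genes tested. Against anti-LTβR the difference was -0.09 (95% confidence interval -0.22 to 0.04; limma adjusted p = 0.279). Keratins of the tumor cells were lower beside it, as given with the marker lists.

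Il17rc encodes the second subunit of the receptor for IL-17A and IL-17F (chromosome 6, 113471427 to 113483140, plus strand, GRCm38). It ran from 354 to 527 normalized counts in untreated tumors (median 440), from 303 to 470 after ADU-S100 (median 403), from 353 to 506 after anti-LTβR (median 393) and from 304 to 457 after combination therapy (median 397). The groups overlapped over most of their ranges. Combination therapy differed from untreated tumors by -0.17 (95% confidence interval -0.37 to 0.04; limma adjusted p = 0.171). The 3 genes whose deviations from the group means were most like those of Il17rc over the 32 tumors were Hebp2 (Pearson r 0.82), Atp1b3 (0.77) and Hpf1 (0.76), and for Il17ra they were Sema4b (0.78), Cttn (0.75) and Tmem63a (0.74), out of 17027 genes and as a description, since all values of a tumor come from 1 library.

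Il22ra1 encodes the IL-22 receptor chain of epithelial cells (chromosome 4, 135728172 to 135752140, plus strand, GRCm38). Untreated tumors ran from 0.985 to 31.5 normalized counts (median 4.51), ADU-S100 tumors from 0 to 33.1 (median 3.46), anti-LTβR tumors from 0 to 35.0 (median 3.67) and combination therapy tumors from 0 to 37.6 (median 16.3). Every group held tumors near 0 and at least 1 above 30, and the ranges overlapped entirely. On the log2 scale combination therapy differed from untreated tumors by 0.57, with a 95% confidence interval from -1.16 to 2.30 (limma adjusted p = 0.599). The interaction was 1.76 (-0.68 to 4.20; limma adjusted p = 0.318).

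The level of Il22ra1 followed skin genes from tumor to tumor. The tumor with the highest Il22ra1 in each group was also the one with the highest summed count of 8 skin markers (Krt5, Krt14, Krt1, Krt10, Lor, Dsg3, Krt15 and Trp63), namely 56516 in combination therapy tumor 4, 37772 in untreated tumor 5, 37386 in anti-LTβR tumor 3 and 34434 in ADU-S100 tumor 1. The 4 tumors at 0 for Il22ra1 summed to between 1199 and 4426. After removal of group means, Il22ra1 and the skin sum had a Pearson r of 0.91 and a Spearman rho of 0.89 over 32 tumors, a description chosen after the values were seen. The 3 genes most like Il22ra1 were Chit1 (Pearson r 0.95), Psapl1 (0.94) and Serpina12 (0.94). None of the 8 skin markers was called in combination therapy against untreated tumors by limma at an adjusted p below 0.05, with a median difference of 0.72 and sums from 1534 to 56516 against 2425 to 37772. Likewise, Il17rc and Il17ra had a Pearson r of 0.63 and 0.44 with the skin sum (Spearman rho 0.52 and 0.43). The part of skin in the values of Il22ra1, Il17rc and Il17ra was not tested.

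**Figure D3:**
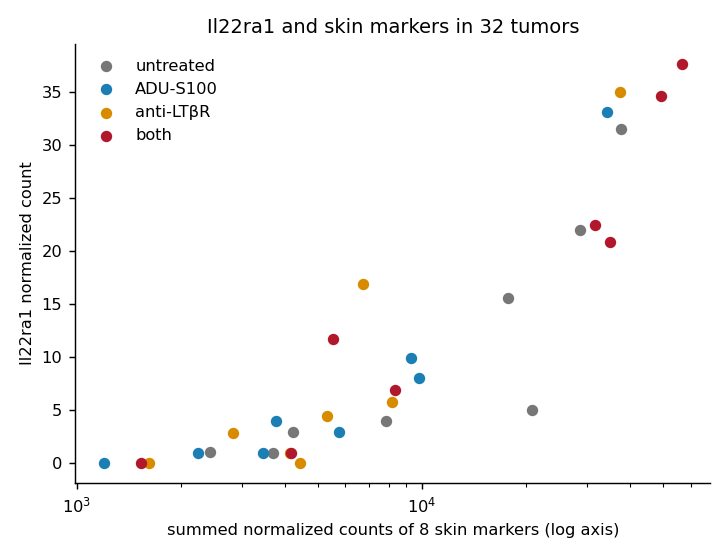
Normalized count of Il22ra1 (vertical axis) against the summed normalized counts of 8 skin markers (horizontal log axis) in the 32 tumors, coloured by group. Tumors with the highest skin sums, up to 56516, also have the highest Il22ra1 counts, up to 37.6, in all 4 groups.

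For the single agents, anti-LTβR gave 0 calls among the 8 genes by limma, beside 15.3% of all genes tested with the filter and 7.54% without it, although 2 members (Ccr6 and Il17ra) had an unadjusted p under 0.05. ADU-S100 gave 0 calls among the 8 genes, where limma called 0% of all genes, and 0 members had an unadjusted p under 0.05. edgeR and DESeq2 on whole reads also called 0 members in both comparisons. In combination therapy against anti-LTβR, 0 of the 2 members that passed the filter were called, beside 26.6% of all genes tested. Of 6 under it, 1 was called (Il23r), beside 14% of all genes, with those that passed the filter included. In combination therapy against ADU-S100, 1 of 6 members under the filter was called (Il23r), beside 28.7% of all genes, again with those that passed the filter included. The interaction of the agents, over all 32 tumors, gave 0 calls among the 8 genes by limma, edgeR and DESeq2 and 0 unadjusted p under 0.05, beside 18.4% of all genes called with the filter and 10.3% without it.

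**Figure D4:**
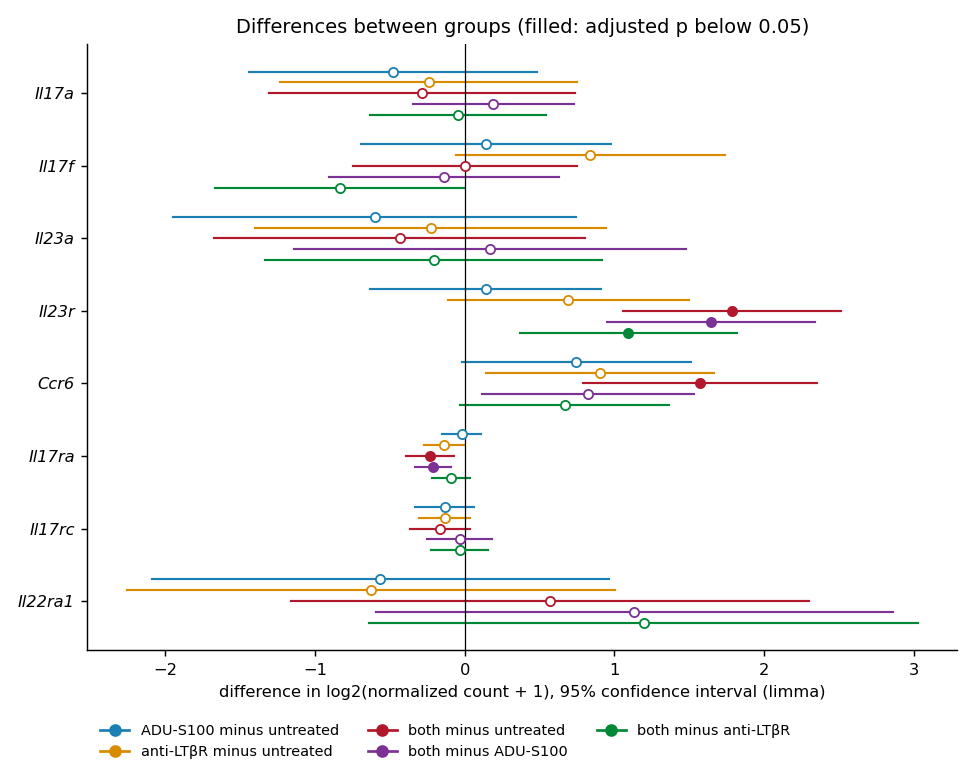
Differences in log2(normalized count + 1) (horizontal axis) for the 8 genes (vertical axis) in 5 comparisons of groups, with 95% confidence intervals from limma; filled points have an adjusted p below 0.05. Il23r is filled in the 3 comparisons with combination therapy, at 1.79, 1.65 and 1.10, Ccr6 in 1, at 1.57, and Il17ra in 2, at -0.23 and -0.21.

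The partners of these genes moved in both directions, and the counts below stand beside 19.6% of all genes tested that were called higher and 23.6% called lower with combination therapy. Of 10 genes for IL-23 partners and type 17 induction, 9 were tested in combination therapy against untreated tumors, of which 2 rose, 2 fell and 5 were not called (median difference 0.12, beside -0.02 over all genes tested). Il12rb1, the second chain of the IL-23 receptor and also of the IL-12 receptor, rose from 384 ± 68.1 to 662 ± 185 normalized counts (SD, n = 8, difference 0.76, limma adjusted p = 0.0011), and it was also higher after anti-LTβR alone (difference 0.90, limma adjusted p = 0.00092). Il12b, the p40 subunit shared by IL-12 and IL-23, averaged 19.5 and 30.0 and was not called (difference 0.55, limma adjusted p = 0.0774). Il1r1, the IL-1 receptor, rose by a difference of 0.49 (limma adjusted p = 0.0005) and Tgfb1, which takes part in Th17 differentiation and in suppression, fell by 0.42 on the log2 scale (limma adjusted p = 0.00011). Il21, under the filter, rose by a difference of 1.44 (limma without the filter, adjusted p = 0.0069).

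Ccl20, the ligand of CCR6, fell where its receptor gene rose. It ran from 4.45 to 46.9 normalized counts in untreated tumors (mean 19.9 ± 12.2, SD, n = 8) and from 0 to 13.5 after combination therapy (mean 4.89 ± 4.32, SD, n = 8). The ranges overlapped in part, and the difference was -2.01 ± 0.50 (SE, limma adjusted p = 0.0043). After anti-LTβR the difference was -1.49 (limma adjusted p = 0.0395), and after ADU-S100 it was -0.97 (limma adjusted p = 0.320).

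Among transcription factors used by type 17 cells, Irf4, which also acts in B and plasma cells, rose from 105 ± 52.6 to 325 ± 103 normalized counts with combination therapy (SD, n = 8, difference 1.70, limma adjusted p = 0.00013). Rora rose by a difference of 0.92 (limma adjusted p = 0.00046). Batf, Maf, Stat3, Ahr and Nfkbiz were not called. After anti-LTβR alone the difference of Irf4 was 1.09 (limma adjusted p = 0.0271), and after ADU-S100 it was -0.14 (limma adjusted p = 0.817).

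Among other cytokines of the families, 5 of 7 genes had values and 1 passed the filter. Il24, an IL-20 family cytokine, averaged 69.2 ± 38.1 normalized counts in untreated tumors and 18.3 ± 15.2 after combination therapy (SD, n = 8, difference -2.04, limma adjusted p = 0.0025). It was also lower after anti-LTβR (17.2 ± 10.4; difference -1.99, limma adjusted p = 0.0091) and averaged 17.6 ± 15.8 after ADU-S100 (difference -2.13, limma adjusted p = 0.276). Il17d, under the filter, rose from 3.91 to 9.17 with combination therapy (difference 1.00, limma without the filter, adjusted p = 0.0257). Of 7 other receptors of the families, 4 were tested and 1 rose, Il10rb, the second chain of the IL-22 receptor (from 714 ± 70.1 to 851 ± 103, SD, n = 8, difference 0.25, limma adjusted p = 0.0147). Il22ra2, the soluble IL-22 binding protein, averaged 0.764 and 2.14 and was not called (limma without the filter, adjusted p = 0.354).

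Downstream of the IL-17 receptor, 2 of 8 signaling genes fell with combination therapy and 0 rose (median difference -0.04), a share of falls close to the 23.6% of all genes tested. They were Traf3ip2, which encodes the adaptor Act1 (from 299 ± 36.0 to 254 ± 24.2, SD, n = 8, difference -0.23, limma adjusted p = 0.0262), and Elavl1, an RNA-binding protein (difference -0.27, limma adjusted p = 0.0010). Of 15 genes that IL-17 is known to induce, 14 were tested, of which 3 rose, 3 fell and 8 were not called (median difference 0.01, beside -0.02 over all genes tested). The 6 called of 14 are close to the 43.2% called among all genes tested, so that the count is no result about this list. The 3 that rose were Mmp9 (1.52, limma adjusted p = 0.00056), Mmp3 (1.16, limma adjusted p = 0.0076) and Steap4 (0.87, limma adjusted p = 0.0198), matrix proteases and a metalloreductase. The 3 that fell were the cytokine Csf2 (difference -0.87, limma adjusted p = 0.0191) and the monocyte chemokines Ccl2 and Ccl7. The neutrophil chemokines Cxcl1, Cxcl2, Cxcl3 and Cxcl5 were not called. After anti-LTβR alone 4 of the 14 fell (Cxcl2, Cxcl3, Ccl2 and Ccl7) and 0 rose, beside 8.1% of all genes tested that were lower, and after ADU-S100 0 of the 14 were called by limma. Of 8 genes known to respond to IL-22, 6 were tested and 2 rose, Reg3g, an antimicrobial lectin (difference 1.88, limma adjusted p = 0.0036), and Saa3, an acute phase protein (0.85, limma adjusted p = 0.0115).

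Lymphocyte markers were higher in the same group of tumors, and the ties of their sums to Il23r and Ccr6 from tumor to tumor within groups were weak. After removal of group means, the Pearson r over 32 tumors of the summed γδ T and innate lymphoid markers was 0.21 with Il23r and -0.17 with Ccr6, and that of the T cell markers was -0.05 and 0.04, a description at a few reads per tumor. The γδ T and innate lymphoid sum is weighted to Sox13, Il7r and Kit (means of 204, 189 and 115 in untreated tumors). Trdc and Trdv4 averaged 26.9 and 5.80 there, so that the r and the range of the sum say little about them. Of 12 markers of γδ T cells and group 3 innate lymphoid cells, 7 rose with combination therapy, 0 fell and 5 were not called (median difference 1.07), and their summed counts ran from 894 to 1421 against 631 to 730 in untreated tumors. Scart1, a scavenger receptor of γδ T cells, rose from 20.2 ± 11.3 to 113 ± 54.0 normalized counts (SD, n = 8, difference 2.48, limma adjusted p = 5.1e-05), Blk, a kinase of B cells and of γδ T cells, by a difference of 1.56 (limma adjusted p = 5.4e-05) and Trdv4, a γδ variable segment, by 1.39 (limma adjusted p = 0.0218). The difference was called for 1 higher and 1 lower of the 10 markers tested after anti-LTβR, and for 0 of 10 after ADU-S100. In the interaction of the agents 5 of the 12 were higher than the sum of the single agents, Scart1 by 2.31 on the log2 scale (limma adjusted p = 0.0069). All 8 T cell markers rose with combination therapy (median 0.86), led by Cd4 (1.16, limma adjusted p = 0.00011), with sums from 1536 to 2832 against 811 to 1852. No marker of these lists was at 0 in all tumors of a group, and the part of these cells in the levels of Il23r and Ccr6 was not tested.

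B cells also carry CCR6. Of 8 B cell markers, 6 were tested and 5 rose with combination therapy (median 1.23), among them Cd79a (1.60, limma adjusted p = 0.0031) and Blk as above, with sums from 196 to 855 against 89.7 to 280 in untreated tumors. Within groups, Ccr6 and the B cell sum had a Pearson r of 0.14 over 32 tumors (permutation p = 0.460; Spearman rho 0.079, permutation p = 0.685; both adjusted over 3 relations, 0.689 and 0.995), and r was 0.10 without the 2 tumors farthest from the median. The part of B cells in the level of Ccr6 was not tested. The r of Il17a with Ccr6 was -0.08 (permutation p = 0.732; Spearman rho -0.21, permutation p = 0.247; adjusted 0.732 and 0.740), and -0.47 without the 2 farthest tumors, so that the value rests on those tumors.

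Among the remaining lists, 1 of 6 neutrophil markers rose (Csf3r, 0.63, limma adjusted p = 0.0036), and 6 of 8 markers of dendritic cells and macrophages rose (median 0.54), led by Cd68 (0.85, limma adjusted p = 0.00015). Of 8 markers of tumor epithelium, 4 fell and 0 rose, with the differences of Krt18 at -1.46 (limma adjusted p = 3.0e-05), Krt7 at -1.27 (limma adjusted p = 0.00090) and Krt8 at -0.92 (limma adjusted p = 0.00012), and sums from 6931 to 14967 against 16205 to 29337 in untreated tumors. Il17ra fell beside these keratins. After removal of group means, its Pearson r with the tumor epithelial sum was 0.30 over 32 tumors (Spearman rho 0.14), as a description. Its r was -0.55 with the T cell sum and 0.44 with the skin sum. The part of the tumor cell share in the level of Il17ra was not tested.

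**Figure D5:**
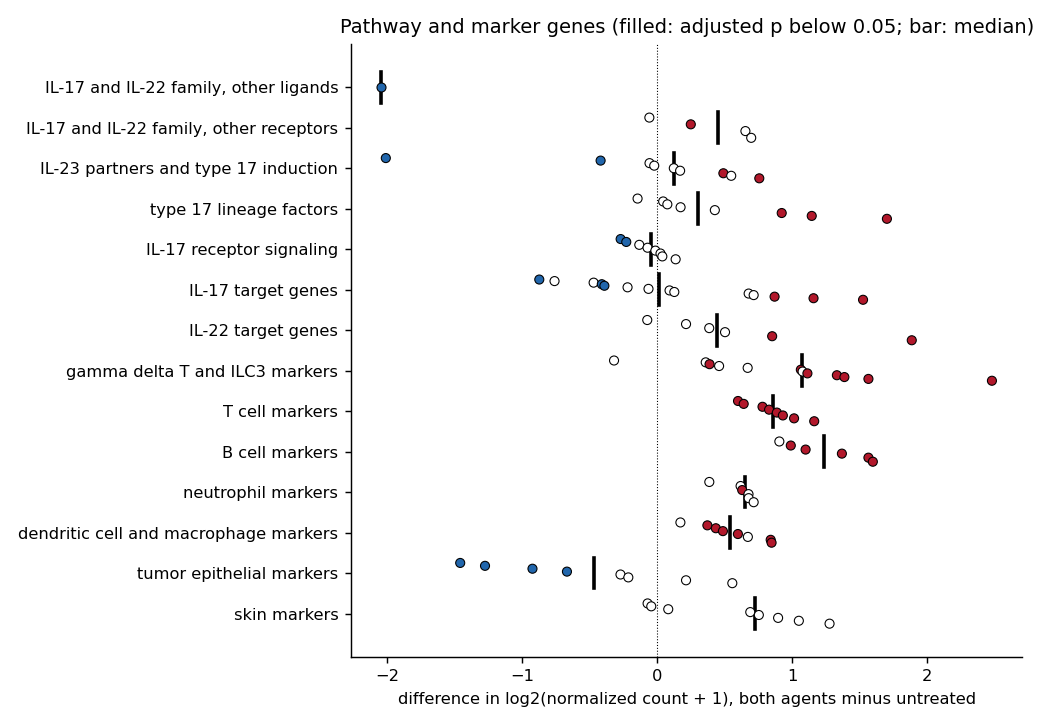
Differences in log2(normalized count + 1) between combination therapy and untreated tumors (horizontal axis) for single genes (points) of each pathway or marker list (vertical axis) that passed the filter on low counts, with the list median (bar); filled points have a limma adjusted p below 0.05, red higher and blue lower. All 8 T cell markers and 7 of 12 markers of γδ T cells and group 3 innate lymphoid cells are filled to the right, and 4 of 8 tumor epithelial markers to the left.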

How the data were processed

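Poly(A) RNA of 32 KPC tumors was measured by bulk RNA-seq. The values the authors deposited are a signal, in which reads of each gene were scaled by a size factor of the library, in a table of 32 tumors and in a larger table of 52 libraries normalized together. Processing tools in the submitters' notes were cutadapt 1.9, FastQC, HISAT2, StringTie, STAR, Partek, DESeq2 and edgeR with the build mm39, and which of them made each table was not settled. Whole reads were recovered from the larger table (100% of values within 0.05 of a whole number among values below 10000 reads, per library), except that in 9 libraries 1 read is worth too close to 1 unit to be told from rounding. Il17rc had no recovered reads here, and expression of Il22 was not analysed here. Positions are of GRCm38 (GENCODE M21), matched by gene identifier, and exon lengths are the union of annotated exons. Per-sample columns left unused number 0.

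Groups came from the sample labels. The other 20 libraries carry labels of another experiment (5 combination therapy, 15 with labels that contradict each other) and entered no comparison. A table of the authors' own gene set comparisons was not used. Each comparison used limma 3.58.1 (R 4.3.3, trend) on log2(normalized count + 1) with its own 16 tumors, and the interaction (combination - ADU-S100 - anti-LTβR + untreated) all 32. Genes were filtered by filterByExpr of edgeR 4.0.16 (minimum count 10), with a Benjamini-Hochberg threshold of 0.05. Genes under the filter were tested as described in the report. Fits were tested on simulated data. Alternatives were edgeR's quasi-likelihood test with TMM or RLE and DESeq2 1.42.0 on recovered reads, a pseudocount of 0.5, other filters, a joint fit, a replicate block, an added 2-fold threshold and leaving out each tumor. Same-numbered tumors were checked for pairing by the correlation of their deviations from group means.

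Marker and pathway lists are textbook lists. The genes and lists were chosen with earlier results of these data known. Genes named from a list are those called with the largest change in combination therapy against untreated tumors (up to 3) and Il12b, Ccl20, Il22ra2, Il10rb, Il12rb1 and Traf3ip2; Steap4, Ccl2, Ccl7, Tgfb1 and genes named as not called were added to account for all calls of their lists. Some genes that this rule names are not reported here. Likeness to a member was the Pearson r of deviations from group means among genes with a mean of at least 10. Intervals of read totals are exact Poisson intervals and cover counting error only. Where reads of overlapping or similar genes could be shared, the counting was not stated.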

Additional observations from a re-analysis of the deposited data

Results flagged for a closer look

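In 4 of the 32 groups of 8 tumors tested (8 genes in 4 groups), the highest tumor stood apart from the others. Chance flags about 1 in 20 groups of continuous values, a rate that does not hold for genes with 0 to a few reads. Untreated tumor 7 had 13.397 normalized counts of Il17a, against 0.955 in the next tumor. ADU-S100 tumor 3 had 0.998703 normalized counts of Il17a, which is 1 read, with all 7 others at 0, so that it stands apart by construction. Anti-LTβR tumor 3 had 505.713 normalized counts of Il17rc, against 415 in the next, and also the highest sum of skin markers in its group (37386). ADU-S100 tumor 1 had 33.1252 normalized counts of Il22ra1, against 9.87 in the next, and also the highest sum of skin markers in its group (34434).

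In the 20 libraries that entered no comparison, reads of the same genes were also above the limit of 3 that a count of 0 allows. The highest library held 11 reads of Il17a, 10 of Il17f, 10 of Il23a, 23 of Il23r, 53 of Ccr6, 2058 of Il17ra and 53 of Il22ra1. More than 3 reads were seen in 2 of the 20 libraries for Il17a, 2 for Il17f, 7 for Il23a, 11 for Il23r and 15 for Ccr6.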

How the results depend on the processing

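Il23r and Ccr6 (higher) and Il17ra (lower) in combination therapy against untreated tumors, and Il23r and Il17ra against ADU-S100, kept their direction and their call under each alternative that gave a value, with 1 choice changed at a time, and without each single tumor (differences without 1 tumor from 1.66 to 1.94, 1.43 to 1.76, -0.26 to -0.18, 1.50 to 1.79 and -0.24 to -0.17). When both choices were changed together, an alternative added after seeing the data, Il17ra against untreated tumors was not called in 5 of 16 fits without the filter, namely without combination therapy tumor 2 or 6 or untreated tumor 4, 7 or 8 (differences from -0.22 to -0.18, limma adjusted p from 0.0532 to 0.0608). With no filter on low counts, the fit counts all members at once and called 3, 2 and 1 members in combination therapy against untreated, ADU-S100 and anti-LTβR tumors, where the filtered fit called 1, 1 and 0. With a 2-fold threshold added, 0 members passing the filter remained against untreated and 0 against ADU-S100 tumors, since Il17ra changed by less. Of the members under the filter, 2, 1 and 1 remained against untreated, ADU-S100 and anti-LTβR tumors. Under the filter, DESeq2 called 2 members against ADU-S100 (limma 1), and edgeR with TMM, edgeR with RLE and a pseudocount of 0.5 called 0, 0 and 0 against anti-LTβR (limma 1, Il23r); the cause was not tested. Leaving out 1 tumor gave from 1 to 2 such calls against ADU-S100 (2 without combination therapy tumor 8), from 0 to 1 against anti-LTβR (0 without any of the 10 tumors named in the report) and, among members passing the filter against anti-LTβR, from 0 to 1 (1, Ccr6, without combination therapy tumor 8, when it passed the filter; it was not called without the filter, limma adjusted p = 0.0755). Counts for the single agents and the interaction stayed at 0 in each alternative. The r of Il17a with Ccr6 was -0.08 on the log2 scale and 0.0233 on the scale of normalized counts; the cause was not tested.

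Same-numbered tumors did not deviate together in all pairs (2 to 6 of 8 pairs had a correlation over 0.1), so the numbers were not taken to pair the tumors. With the replicate block, the limma adjusted p was 0.0028 for Il23r, 0.0196 for Ccr6 and 0.0135 for Il17ra in combination therapy against untreated tumors, and the block changed no count of members called (1 passing the filter and 2 under it). At a depth of 12762453 to 15591986 reads, Il17a, Il17f, Il23a and Il23r rest on a few reads per tumor.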

Other observations

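Among the 20 other libraries, 5 were labelled as combination therapy throughout. They held from 8716257 to 18789131 recovered reads. Il23r ran from 0 to 23 reads in them (median 9) and Ccr6 from 0 to 53 (median 14). Il17ra ran from 10.8 to 96.0 RPM (recovered reads scaled to an equal total per library), wholly below the 98.3 to 172 RPM of the 32 tumors described above, so that levels were not set side by side between the sets. The lower limit comes from the library with 8716257 reads, which stands apart and also held 0 reads of Ccr6 and of Il23r. Without it the other 4 ran from 44.6 to 96.0 RPM of Il17ra, from 12 to 53 reads of Ccr6 and from 0 to 23 reads of Il23r. Il17a totalled 12 reads and Il17f 8 reads over the 5 libraries. In the 15 libraries with contradictory labels, Il23r ran from 0 to 21 reads (median 4), Ccr6 from 1 to 46 (median 11), Il17a from 0 to 11 (median 0) and Il17f from 0 to 10 (median 0). The 2 sets come from separate experiments and were not compared by a test.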
